A study of Mus musculus with 14 samples.

Results

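The genes at 4 of the 5 widest H3K4me1 sites were Myh9, Zmiz1, Unc5b and Pmepa1. They were selected by the width of the site, so the widths below are a description and carry no test. The members are 4 of 160144 sites, of which 160108 lay on chromosomes 1 to 19 and X. H3K4me1 had been measured by ChIP-seq in NG3 cells, a clone of immortalized mouse embryo fibroblasts (iMEF) in which both endogenous Ash2l alleles were deleted and a lentiviral, tagged human ASH2L, FKBP-HA2-ASH2L, took their place. This background is shared by all groups, and the fusion protein is degraded when dTAG-13 is added, a molecule that bridges the FKBP tag and an E3 ligase. The 6 conditions were a control without dTAG-13 and treatment for 30 min or for 2, 4, 8 or 16 h, each with 2 replicates. As controls, 2 inputs, of untreated cells and of cells treated for 16 h, complete the 14 libraries. The set of sites used here is the 1 deposited as identified across all samples. It holds positions only, so the sites below are assigned to no time point and carry no replicate error. Sites changed after dTAG-13 were not analysed here. Of 7 fibroblast marker genes, 6 (Col1a1, Col1a2, Fn1, Vim, Pdgfrb and Thy1) had a site within 1 kb of the most upstream transcriptional start site (TSS), and Col3a1 did not. Over all protein-coding genes the share was 64.4%. Such a site was present at 0 of 3 haematopoietic, 0 of 2 muscle, 1 of 2 endothelial, 1 of 2 neuronal and 3 of 3 epithelial markers, and a site at a promoter is no measure of expression.

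Mono-methylation of lysine 4 of histone H3 is placed by KMT2 complexes, of which ASH2L is a core subunit. It is best known as a mark of enhancers, it is also found beside active promoters, and tri-methylation takes its place close to the TSS. The 4 genes act in different processes. Myh9 encodes the heavy chain of non-muscle myosin IIA, a motor of contraction and adhesion. Zmiz1 encodes a PIAS-like zinc finger protein that acts as a coactivator of transcription, Unc5b a receptor for netrin, and Pmepa1 a membrane protein that restrains TGF-β signalling by binding SMADs and ubiquitin ligases of the NEDD4 family.

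The sites and their genes meet just downstream of the TSS, so the 250 bases upstream of the TSS are shown first, as the promoter sequence beside which the wide sites begin. They were taken from the RefSeq promoters of GRCm38.p6, in which 5 of the 7 members and paralogs were matched. The Myh9 sequence is chr15:77842176-77842425 on the minus strand, the Zmiz1 sequence chr14:25458935-25459184 on the plus strand and the Unc5b sequence chr10:60831582-60831831 on the minus strand. Pmepa1 is named only. All are written 5′ to 3′, and capitals mark CpG dinucleotides.
Myh9: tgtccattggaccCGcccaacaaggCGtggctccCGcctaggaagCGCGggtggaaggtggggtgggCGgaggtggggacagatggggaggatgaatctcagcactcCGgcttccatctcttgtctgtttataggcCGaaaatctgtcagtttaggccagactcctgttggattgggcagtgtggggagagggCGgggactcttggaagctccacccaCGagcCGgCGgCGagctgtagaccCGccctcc
Zmiz1: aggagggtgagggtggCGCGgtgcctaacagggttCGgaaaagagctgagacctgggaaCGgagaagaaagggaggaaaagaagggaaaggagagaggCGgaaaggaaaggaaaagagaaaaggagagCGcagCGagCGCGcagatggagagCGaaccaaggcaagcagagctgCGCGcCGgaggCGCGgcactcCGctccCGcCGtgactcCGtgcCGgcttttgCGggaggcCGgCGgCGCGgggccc
Unc5b: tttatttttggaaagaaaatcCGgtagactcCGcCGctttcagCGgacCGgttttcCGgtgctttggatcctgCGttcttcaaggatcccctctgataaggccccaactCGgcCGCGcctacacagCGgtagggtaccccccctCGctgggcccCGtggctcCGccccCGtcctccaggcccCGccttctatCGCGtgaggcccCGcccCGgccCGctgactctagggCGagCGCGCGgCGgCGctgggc
These stretches hold 14, 25 and 27 CpGs, respectively, against a median of 6 over 32851 RefSeq promoters of the same length. The matched paralogs Myh10 and Unc5c hold 15 and 23, so a CpG count of this size is not particular to the members. The GC box GGGCGG, searched on both strands, occurred 4 times at Myh9, 2 times at Unc5b and 0 times at Zmiz1, and 32.7% of all promoters hold it. The Zmiz1 stretch ends at the RefSeq TSS, which lies at -39 bp from the main TSS used for the distances below. No base of the Myh9 and Unc5b stretches was under an H3K4me1 site, and 120 bases of the Zmiz1 stretch were. A match of letters does not show that a factor binds.

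The second set of sequences comes from inside the wide sites. It shows, for each gene, the shortest intronic stretch with the most copies of TGANTCA within 250 bases and outside repeats. TGANTCA, called the AP-1 word here, allows any base (N) at its centre. Words with C or G at the centre were not counted apart from those with A or T. All words printed for Pmepa1 have A or T there. AP-1 factors are common at fibroblast enhancers, and the stretches were chosen because they hold the word. Capitals mark the AP-1 word, with 20 bases on either side. All 4 lie in intron 1 of GRCm38.p6: chr15:77832702-77832772 (Myh9, minus strand), chr14:25464744-25464815 (Zmiz1, plus strand), chr10:60823692-60823951 (Unc5b, minus strand) and chr2:173266442-173266666 (Pmepa1, minus strand).
Myh9 intron 1: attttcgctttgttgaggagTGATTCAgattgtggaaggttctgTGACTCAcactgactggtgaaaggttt
Zmiz1 intron 1: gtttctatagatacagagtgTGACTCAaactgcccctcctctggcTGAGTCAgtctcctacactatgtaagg
Unc5b intron 1: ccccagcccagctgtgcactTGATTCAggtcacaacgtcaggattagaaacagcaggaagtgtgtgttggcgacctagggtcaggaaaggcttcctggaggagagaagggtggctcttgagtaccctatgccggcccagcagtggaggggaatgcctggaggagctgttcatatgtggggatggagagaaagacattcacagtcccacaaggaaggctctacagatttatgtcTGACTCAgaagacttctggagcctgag
Pmepa1 intron 1: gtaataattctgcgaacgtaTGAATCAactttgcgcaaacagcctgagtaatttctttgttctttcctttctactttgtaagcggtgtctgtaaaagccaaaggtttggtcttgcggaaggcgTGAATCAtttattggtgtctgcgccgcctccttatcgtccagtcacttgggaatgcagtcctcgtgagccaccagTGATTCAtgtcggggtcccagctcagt
The Myh9 pair is centred 9426 and 9450 bp downstream of the TSS and the Zmiz1 pair 5543 and 5568 bp downstream. At Unc5b the words lie at 7653 and 7866 bp, and at Pmepa1 3 words lie between 9890 and 10068 bp.

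The widest site of the set lay in Myh9, on chromosome 15 from 77791909 to 77842014 (mm10), and was 50106 bp wide. The Zmiz1 site on chromosome 14 (25459369 to 25501809) ranked 2 with 42441 bp. Unc5b followed on chromosome 10 (60790969 to 60831349) with 40381 bp. The Pmepa1 site on chromosome 2 (173249166 to 173275850) ranked 5 with 26685 bp. The median of all sites was 603 bp, so that the 4 sites were 44.3 to 83.1 times as wide as the median site. Rank 4 belonged to Rara (27288 bp), the retinoic acid receptor α gene, which is not among the 4. Just outside the 5 widest came Hspg2 (22313 bp), Plec (21985 bp), Sept9 (20625 bp), Col5a1 (19948 bp) and Lncpint (19179 bp). The first 3 sites thus stood more than 13 kb above the next, while Pmepa1 was close to Rara. In the set, 160 sites reached 10 kb.

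**Figure D1:**
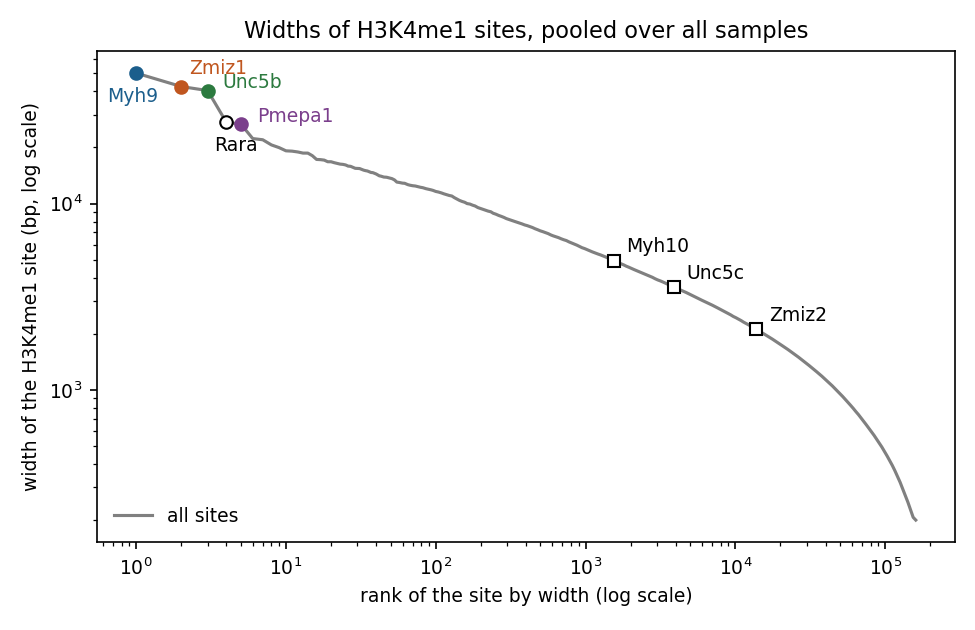
Width of H3K4me1 sites in bp (vertical, log scale) against their rank by width (horizontal, log scale), for the set pooled over all samples. Filled circles are the 4 members, the open circle is Rara and open squares are the widest sites of the paralogs Myh10 (4937 bp), Unc5c (3566 bp) and Zmiz2 (2115 bp).

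The order by width depended on where the peak caller had ended a site. With sites joined across gaps of up to 1 kb, the Myh9 region measured 61073 bp and ranked 3, behind Col5a1 (66095 bp) and Actn1 (61398 bp). Pmepa1 then ranked 9 with 48530 bp, Zmiz1 12 with 45322 bp and Unc5b 13 with 42047 bp. Across gaps of up to 3 kb, Col4a2 came first with 151890 bp, and the ranks were 7 for Zmiz1, 18 for Myh9, 47 for Unc5b and 49 for Pmepa1. The number of members among the 5 widest thus fell from 4 to 1 and to 0 with the joins. The ranks stayed within the first 50 of 83411 regions.

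All 4 sites lay entirely inside their gene and began shortly downstream of the TSS of the main transcript. The near edge was 161 bp downstream at Myh9, 145 bp at Zmiz1, 232 bp at Unc5b and 683 bp at Pmepa1. From there the sites ran in the direction of transcription to 50266, 42585, 40612 and 27367 bp. A near edge 0 to 1 kb downstream of a TSS was found for 4 of 4 member sites. It was found for 7.03% of all sites and for 15.4% of the other sites of at least 10 kb (24 of 156). This 1 kb limit was chosen after the edges were seen, and no test was made.

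The TSS itself was free of sites in all 4 genes. The pooled set includes treated cells, for which the paper reports gains of H3K4me1 at promoters. Whether edges and gaps near the TSS are the same in untreated cells was not tested. The free gap measured 635 bp at Myh9, 314 bp at Zmiz1, 572 bp at Unc5b and 861 bp at Pmepa1. On its upstream side stood a second, much smaller site of 226, 2567, 1094 and 1595 bp, respectively. Among the 14071 protein-coding genes with a site within 1 kb of the main TSS, 37.1% had a TSS free of sites. That share does not require a site on each side of the TSS, as the members had. All 4 gaps are shorter than 1 kb, so joining sites across 1 kb closed them and left 0 of 4 TSSs free.

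**Figure D2:**
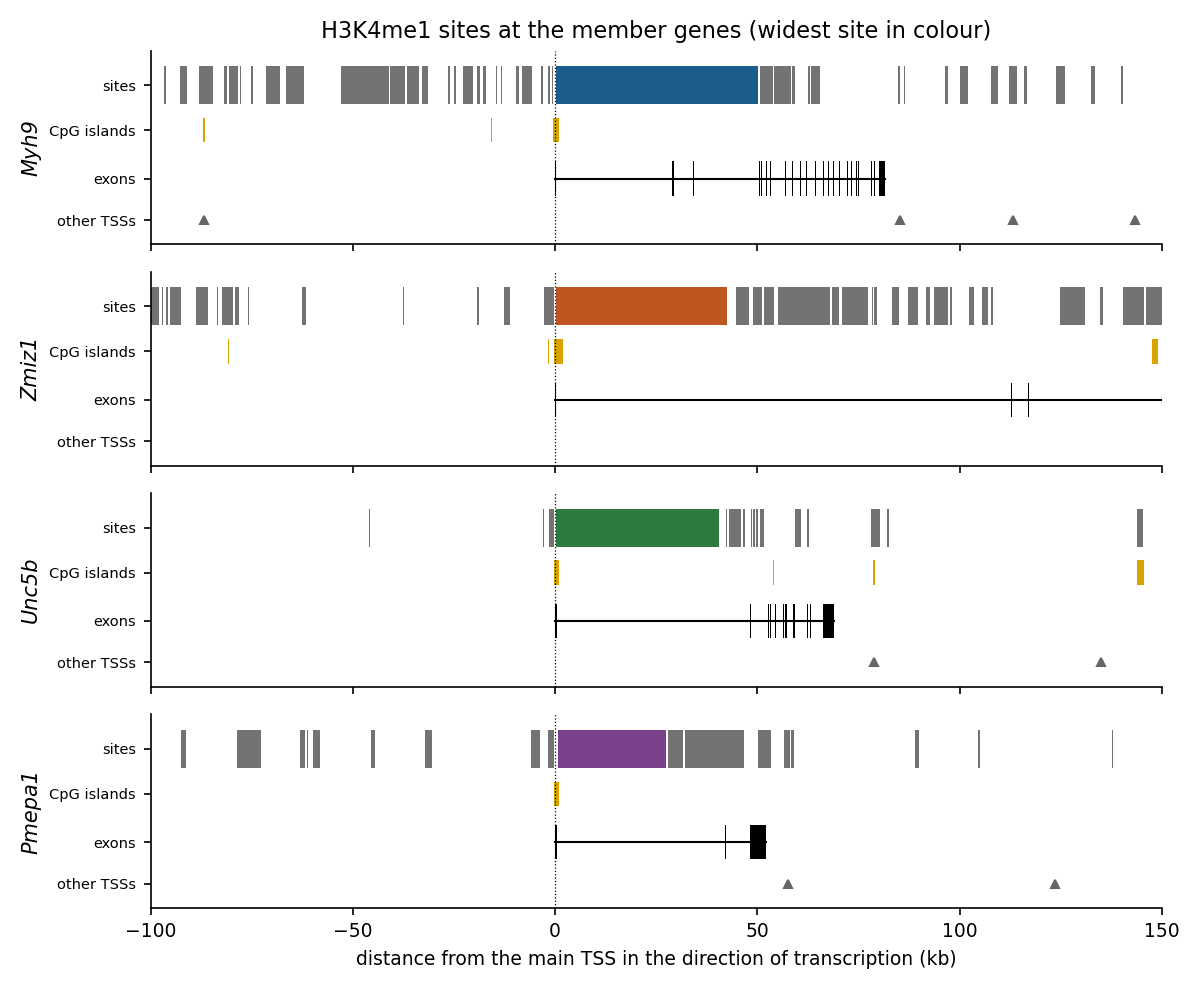
H3K4me1 sites, CpG islands, exons of the main transcript and TSSs of other protein-coding genes at the 4 member genes, by distance from the main TSS in kb in the direction of transcription. The widest site is coloured and the other sites are grey, and in all 4 genes the coloured site begins just right of the dotted line at the TSS, at 145 to 683 bp.

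Most of this width lay in the first intron. In Zmiz1, Unc5b and Pmepa1, intron 1 held 99.6, 99.3 and 100% of the bases of the site. The Zmiz1 and Unc5b sites also covered 188 and 263 bases of exon 1, and the Pmepa1 site touched no exon. Myh9 differed from them. Its site held 57.3% of its bases in intron 1 (28725 bp, covered throughout), 41.1% in later introns and 1.56% in exons. It ran through exons 1 to 6 (782 bases, of which 705 are coding), covered introns 2 to 5 whole and ended after 72.8% of intron 6. In all, the 4 sites covered 159613 bp.

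Together with the smaller sites beside them, nearly all of the first introns was under H3K4me1. The introns are long, with 28725 bp in Myh9, 43098 bp in Zmiz1, 47804 bp in Unc5b and 41626 bp in Pmepa1, against a median of 2797 bp over protein-coding genes. A first intron of at least 25 kb, a limit set after seeing the lengths, was present in 4 of 4 members and in 10.8% of 20173 protein-coding genes with an intron. Sites covered 100% of it in Myh9, 98.0% in Zmiz1, 92.0% in Unc5b and 97.2% in Pmepa1. Of all first introns this long, 5.96% were covered by at least 50%, and the median was 8.76%. Coverage follows in part from the width by which the genes were selected, as does the length of intron needed to hold such a site. The later introns were covered by 65.8% in Myh9, 39.8% in Zmiz1, 22.4% in Unc5b and 76.6% in Pmepa1, in the last 3 entirely by sites other than the widest.

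Over the whole gene, sites covered 74.4% of Myh9 (81589 bp long), 50.5% of Zmiz1 (207559 bp), 69.8% of Unc5b (68989 bp) and 90.5% of Pmepa1 (52076 bp). The median protein-coding gene was covered by 6.61%. In the first 10 kb, coverage was 98.4, 98.5, 97.7 and 93.2%, while the 10 kb upstream were covered by 44.8, 25.7, 12.9 and 39.4%. At least 90% of the first 10 kb was thus under a site in 4 of 4 members and in 0.900% of 13660 protein-coding genes, a comparison that the selection on width fixes in part.

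Along the gene the coverage fell towards the 3′ end. When each gene was divided into 10 parts of equal length, the first was covered by 86.9 to 99.1% and the second by 100% in all 4. In Myh9 coverage stayed above 90% to the seventh part, was 53.8% in the eighth and ended at 0%. In Unc5b it was 88.7% in the sixth part and 6.68% in the last. Pmepa1 still had 97.8% in the ninth part and 38.0% in the last. Zmiz1 was uneven, with 10.0% in the sixth part, 55.5% in the seventh and 0% in the last. The mean of 10068 protein-coding genes of at least 20 kb went from 27.9 to 5.84%.

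**Figure D3:**
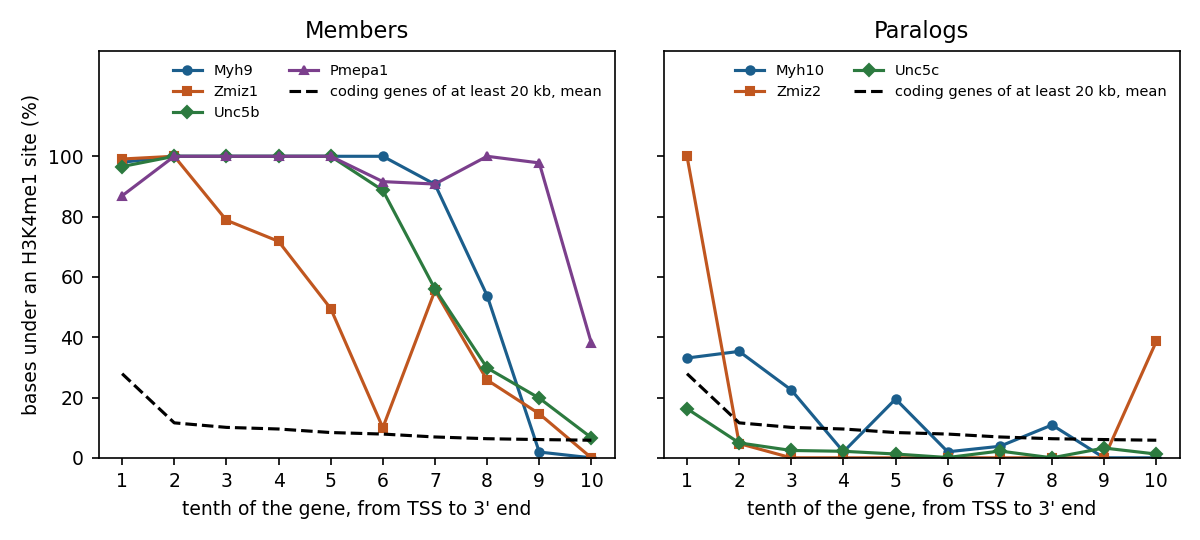
Percent of bases under an H3K4me1 site in each of 10 equal parts of the gene from the TSS to the 3′ end, for the members (left) and the paralogs (right). The dashed line is the mean of 10068 protein-coding genes of at least 20 kb, and the second part is fully covered in all 4 members but at most 35.3% covered in the paralogs. Zmiz2 (17085 bp) is shorter than this 20 kb limit, and its first part is 100% covered.

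The annotation lists further transcripts inside the wide sites, and no start of a protein-coding transcript among them. The Myh9 site held the start of a non-coding processed transcript of Myh9, 28944 bp downstream of the main TSS, and the snRNA gene Gm22107. The Unc5b site held the start of a processed transcript of Unc5b at 10940 bp and Gm19972, a gene that the annotation lists as still to be checked by experiment. The Zmiz1 site held the intronic genes Gm47920 and Gm47921 and the start of the antisense gene Zmiz1os1, and the Pmepa1 site held none. Counting all annotated TSSs of a gene, 5 of 8 had a site within 1 kb in Myh9, 7 of 8 in Zmiz1, 3 of 3 in Unc5b and 3 of 3 in Pmepa1. The 2 downstream starts of protein-coding Myh9 transcripts, at 61042 and 72396 bp, had none.

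A CpG island spanned the TSS of each member, and the near edge of the wide site cut through it. The islands measured 1425 bp at Myh9, 2125 bp at Zmiz1, 1264 bp at Unc5b and 1258 bp at Pmepa1. Of these bases, 58.5, 85.8, 63.5 and 26.0%, respectively, were inside the wide site. An island within 1 kb of the most upstream TSS was present in 4 of 4 members and in 54.5% of 21755 protein-coding genes, and a site within 1 kb in 4 of 4 and in 64.4%. No other island overlapped a wide site. At Zmiz1 another island of 453 bp, from -1854 to -1402 bp relative to the TSS, lay wholly under the upstream site.

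The edge inside the island is shown for Pmepa1, whose site begins farthest from the TSS. The 120 bases of GRCm38.p6 at chr2:173275791-173275910, minus strand, lie in intron 1, and capitals mark the bases inside the site.
Pmepa1 edge: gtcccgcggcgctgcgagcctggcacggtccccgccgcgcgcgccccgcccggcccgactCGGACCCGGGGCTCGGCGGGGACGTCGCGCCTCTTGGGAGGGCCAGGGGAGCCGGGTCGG
The 60 bases outside the site hold 13 CpGs and the 60 bases inside hold 9, so the edge does not mark the end of the CpG-rich sequence.

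Further sites were dense around Myh9 and Zmiz1, while their number at Unc5b and Pmepa1 was near the genome average. Within 100 kb of either edge lay 40 sites at Myh9, 34 at Zmiz1, 14 at Unc5b and 16 at Pmepa1, against a genome average of 12.5 sites per 200 kb. Around the widest sites of the paralogs lay 36 at Myh10, 20 at Zmiz2 and 13 at Unc5c, so such counts are not particular to the members. At Myh9 the flank upstream of transcription was covered by 47.2% and the downstream flank by 22.4%. Zmiz1 showed the opposite order with 18.3 and 51.3%. At Unc5b the flanks were covered by 1.62 and 10.4%, and at Pmepa1 by 16.8 and 25.4%. The genome was covered by 5.83%, which the upstream flank of Unc5b did not reach.

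The neighbours differed in place as well. Of the 40 neighbours of Myh9, 21 lay between genes, 8 within 1 kb of a TSS, 6 in another gene and 5 in Myh9. The widest of these, 11882 bp, lay between genes 41327 bp upstream of the Myh9 site. At Zmiz1, 19 of 34 were in Zmiz1 itself, 11 in another gene, 4 near a TSS and 0 between genes, and the widest was an intronic site of 12839 bp. These 11 lay within the antisense gene Zmiz1os1 (25257523 to 25461128), which spans the whole upstream flank. No site in that flank could therefore count as between genes. Unc5b had 9 of 14 in its own gene and none above 3052 bp. Pmepa1 had 10 of 16 between genes. Its widest neighbour, 14671 bp, lay in Pmepa1, 4718 bp beyond the far edge, and a site of 3805 bp stood between them.

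In these windows 8 protein-coding genes have their start. Within 100 kb of the Myh9 site were the starts of Apol8 (34906 bp), Apol9b (62870 bp), Txn2 (86992 bp), which encodes mitochondrial thioredoxin, and Apol7e (93052 bp). Apol8, Apol9b and Apol7e belong to the apolipoprotein L family. Near Unc5b were Slc29a3 (38175 bp), a nucleoside transporter gene, and Cdh23 (94479 bp), a cadherin gene of hair cells. Near Pmepa1 were Zbp1 (30243 bp), a sensor of nucleic acids, and Pck1 (96118 bp), an enzyme of gluconeogenesis, and near Zmiz1 there were none. A site within 1 kb of the TSS was present in 5 of these 8 genes and absent from Apol7e, Cdh23 and Pck1, with no site anywhere in Pck1. The share over all protein-coding genes was 64.4%, so this count was close to the background. Cdh23 nevertheless held an internal site of 6687 bp, the widest over these 8 genes.

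The paralogs named with the members had narrower sites that covered the TSS. Myh10, the heavy chain of non-muscle myosin IIB, had a widest site of 4937 bp (rank 1544). Zmiz2, the other ZMIZ coactivator, had one of 2115 bp (rank 13796). Unc5c, another netrin receptor, had one of 3566 bp (rank 3874). These sites began 1379, 723 and 615 bp upstream of the main TSS and ended 3557, 1391 and 2950 bp downstream. In the sites as deposited, the TSS was therefore covered in 3 of 3 paralogs and in 0 of 4 members. Joining sites across 1 kb removed this contrast, as it left 0 of 4 member TSSs free. A TSS free of sites was also found in 37.1% of the protein-coding genes with a site within 1 kb of it. The main TSS of the further paralog Myh14 was likewise not covered. The islands at the 3 promoters (935, 940 and 883 bp) were 100% inside the site. No test was made, since the set has no replicates and the members were selected on width.

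The paralogs were also covered less than the members. Sites covered 12.9% of Myh10, 14.3% of Zmiz2 and 3.40% of Unc5c, against 50.5 to 90.5% of the members and a median of 6.61% over protein-coding genes. The first 10 kb were covered by 37.8, 13.9 and 29.5%, with a median of 13.2% over protein-coding genes. The first introns did not share one length, with 7027 bp in Myh10, 757 bp in Zmiz2 and 212149 bp in Unc5c, and 50.0, 100 and 4.45% of them were covered. Zmiz2 is 17085 bp long, less than the 42441 bp of the Zmiz1 site. Unc5c is 369709 bp long and had 23 separate sites. Whether gene length bears on the width of a site was not tested.

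**Figure D4:**
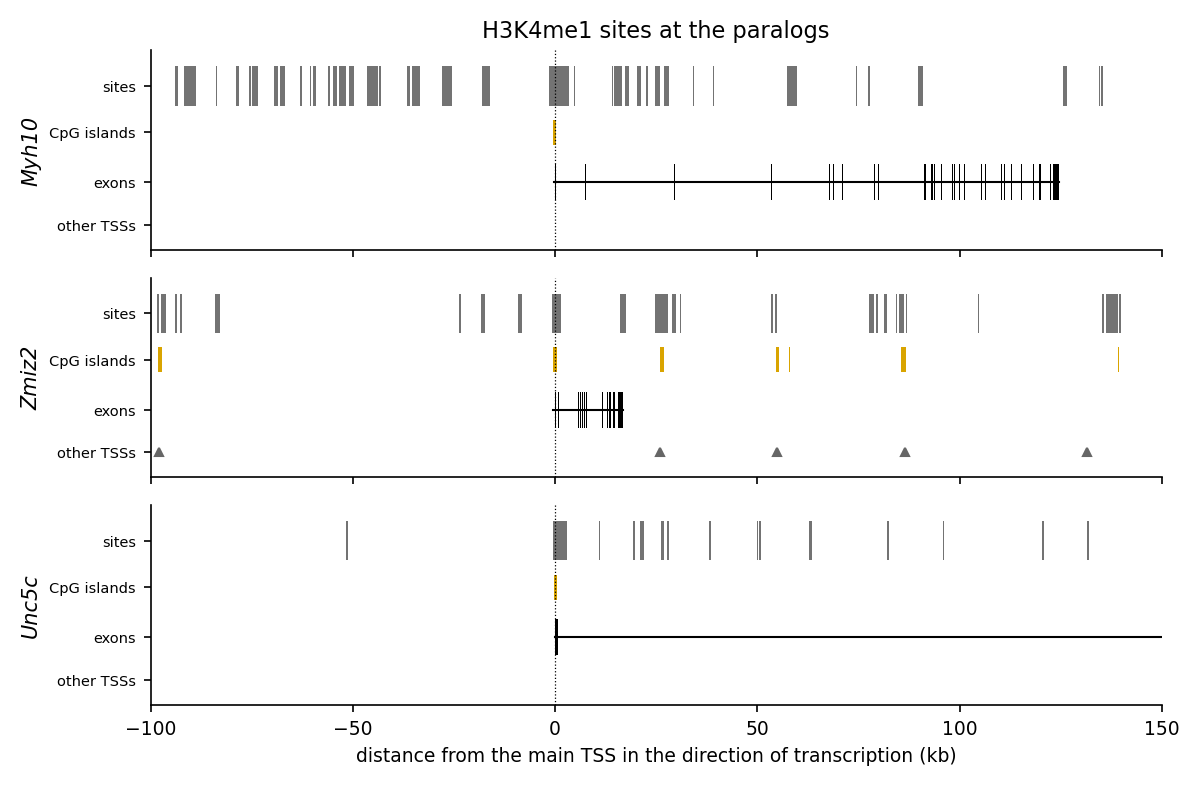
The same map for the paralogs, by distance from the main TSS in kb, with H3K4me1 sites in grey. A site spans the TSS in each, and the widest is 4937 bp at Myh10, 2115 bp at Zmiz2 and 3566 bp at Unc5c.

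The further paralogs also had sites far narrower than those of the members, as deposited. Unc5a and Unc5d, 2 more netrin receptors, had a widest site of 1114 and 1017 bp over the TSS. Both genes have a long first intron (41148 and 327731 bp), of which 2.78 and 0.126% was covered, and neither gene had a wide site there. Myh14, the heavy chain of non-muscle myosin IIC, had no site within 1 kb of its TSS and none above 459 bp. Ldlrad4, related to Pmepa1, was covered by 38.5%, divided over 114 sites of at most 5246 bp. These sites lie close together, so that Ldlrad4 reached 20833 bp (rank 106) with sites joined across 1 kb, against 48530 bp at Pmepa1. With joins across 3 kb it reached 43213 bp (rank 90), against 52829 bp at Pmepa1.

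In sequence the wide sites held more GC and fewer repeats than the site-free bases around them, a trait shared with other wide sites. GC content was 51.0% at Myh9, 52.8% at Zmiz1, 54.6% at Unc5b and 53.6% at Pmepa1, and repeats made up 15.5, 11.3, 11.3 and 8.77%. All sites had 49.5% GC and 16.7% repeats, and the site-free bases within 100 kb of the members had 49.1 and 27.4%. For the 4 sites together the values were 52.8% GC and 12.2% repeats. They were 52.6 and 14.7% in the neighbours within 100 kb and 52.4 and 14.6% in the other sites of at least 10 kb.

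The AP-1 word of the intronic stretches occurred 23 times at Myh9, 12 at Zmiz1, 14 at Unc5b and 13 at Pmepa1. Per kb this was 0.459, 0.283, 0.347 and 0.487. For the 4 sites together, 62 words gave 0.388 per kb (95% Poisson interval 0.298 to 0.498). Site-free bases within 100 kb held 0.234 per kb (0.197 to 0.276), an interval that does not overlap the first. With repeats left out, the values were 0.414 and 0.250 per kb. Taken singly, the interval of Myh9 (0.291 to 0.689) was above that of the site-free bases, and those of the other 3 genes overlapped it. The intervals cover the counting of words alone and are no test.

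The AP-1 density was near that of the neighbours and of other wide sites and below that of all sites. The neighbours within 100 kb held 0.387 AP-1 words per kb, the other sites of at least 10 kb 0.360 and all sites 0.533, which is above the interval of the members. In windows of 250 bases, 8.49% of the windows in the 4 sites held the word, against 12.1% in all sites and 5.56% in the site-free bases. The longest gap between AP-1 words was 4671 bp at Myh9 (median gap 1614 bp) and 10712 bp at Pmepa1 (median gap 438 bp). Other words differed less from the site-free bases. GGAATG, bound by TEAD factors, occurred 0.689 times per kb (0.566 to 0.831) against 0.633 (0.571 to 0.700), and was held by 15.7% of windows in the 4 sites and 16.0% in all sites. TGTGGT, bound by RUNX factors, occurred 0.789 times per kb (0.658 to 0.940) against 0.933 (0.858 to 1.01), with 17.5 and 19.5% of windows. The CArG box bound by SRF occurred 8 times, of which 6 were at Myh9, and its density of 0.0501 per kb was close to the 0.0528 of the site-free bases. It was held by 1.10% of windows in the 4 sites and 1.27% in all sites. All words were searched on both strands, and 1 AP-1 word shared letters with a TEAD word.

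**Figure D5:**
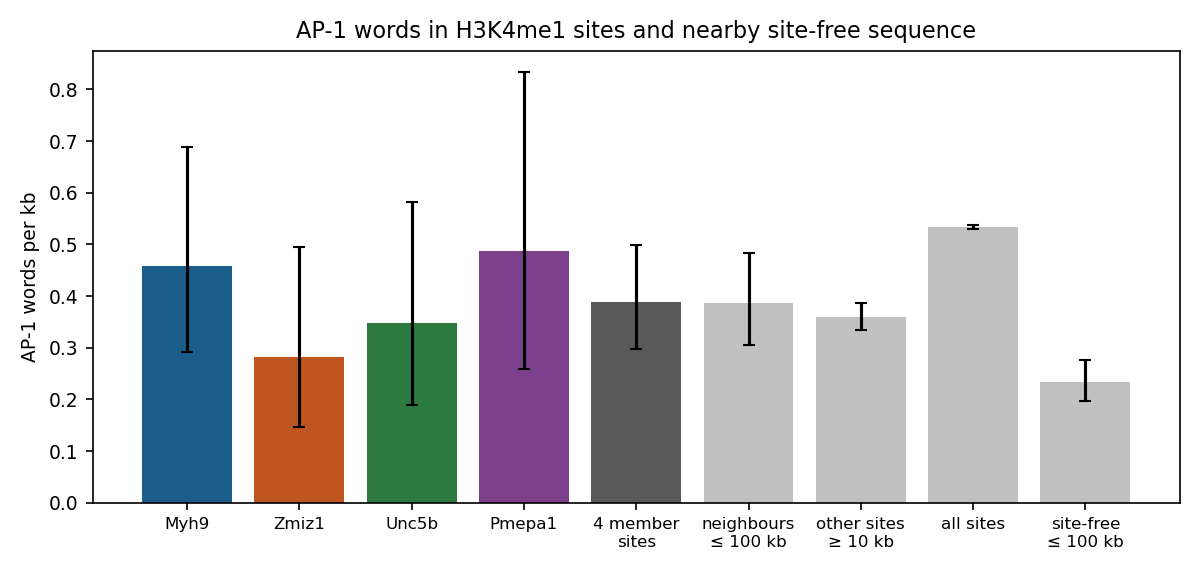
AP-1 words (TGANTCA) per kb in each member site, the 4 together, their neighbours, the other sites of at least 10 kb, all sites and site-free bases within 100 kb of the members. Bars start at 0 and lines are 95% Poisson intervals of the count, with 0.388 per kb for the 4 sites, 0.234 for site-free bases and 0.533 for all sites.

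Genes that act with the members had sites at their promoters in 41 of 42 cases. For non-muscle myosin II, 10 of 10 genes for light chains, kinases and regulators had a site within 1 kb of the most upstream TSS. So did 10 of 10 genes for netrins, their receptors and partners, 13 of 13 of TGF-β and SMAD feedback and 8 of 9 of the PIAS, SUMO and Notch list. The share over all protein-coding genes was 64.4%, and Pias1 had a site only at another of its TSSs. That share was not matched for islands. An island lay within 1 kb of the most upstream TSS in 34 of the 42 genes and in 54.5% of protein-coding genes. The lists were composed from genes known to act in the pathways. No test was made, and expression of these genes was not examined here.

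Sites of at least 5 kb were present over 10 of the 42 genes, against 5.18% of protein-coding genes. This background was not matched for gene length, which ran from 3286 bp (Myl6) to 1097436 bp (Dcc) in the lists. Nor was it matched for islands, whose shares are given above. TGF-β and SMAD feedback, the pathway of Pmepa1, had 5 of 13. These were Smad3 (12199 bp), which carries the signal, Smad7 (11401 bp), the inhibitory SMAD, the corepressor gene Ski (9990 bp) and the ubiquitin ligase genes Nedd4 (6680 bp) and Smurf1 (6224 bp). Its ligand and receptor genes Tgfb1 (3279 bp), Tgfbr1 (807 bp) and Tgfbr2 (3348 bp) had narrower sites. Around Myh9, the light chain gene Myl6 (6900 bp) and the kinase gene Mylk (5484 bp) had such sites, and Rock1, a kinase that acts upstream of myosin, had none above 998 bp. Around Unc5b they were present over the ligand genes Flrt2 (7056 bp) and Ntn1 (5455 bp). The netrin receptor gene Dcc had none above 1004 bp. Around Zmiz1, Rbpj (7514 bp), the DNA-binding factor of Notch signalling, had one. Only Smad3 and Smad7 of the 42 reached 10 kb, and none reached the 26685 bp of Pmepa1.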

How the data were processed

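H3K4me1 was measured by ChIP-seq in 12 libraries, with 2 inputs. Per the methods and the labels, the authors used BWA on mm10 after trimming, SAMtools to filter, a merge of replicates and Macs for broad peaks, and versions and thresholds are not given in the sources used here. The deposited values used here are positions in bases of 1 set of sites over all samples. This table gives no count, signal or depth per library, so no test was made, and the authors' list of changed sites was not analysed here. The deposited starts are 0-based and the coordinates printed here 1-based.

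Sites were compared with GRCm38.p6 and GENCODE M21 (M25, named in the methods, was not used here) in Python 3.11.15 with numpy 2.4.6, pandas 2.3.3, scipy 1.17.1, numba 0.67.0 and matplotlib 3.10.9. The main transcript was the protein-coding one with a CCDS or principal tag and the longest exons. CpG islands were called on repeat-masked sequence (17 per CpG, -1 per other base, over 200 bp, GC at least 50%, observed to expected CpG over 0.6), which gave 16278 islands. On simulated data, 49 of 50 planted islands were found with both ends within 60 bp, and coverage of 2000 windows equalled a direct count.

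Named genes are the members, their paralogs, the genes at the 10 widest sites, the genes starting within 100 kb of a member and the pathway lists. Members, lists and tests were chosen with earlier results of these data known. Actn1 and Col4a2, the widest after joining sites, were named after their values were seen. Alternatives were joining sites, a minimum width, other windows, TSSs and islands, and masking of repeats.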

Additional observations from a re-analysis of the deposited data

How the results depend on the processing

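Of 27 alternatives, 6 left the value as it was. Joining sites across gaps of 1 or 3 kb raised the median width of the 4 sites from 41411 to 46926 and 61840 bp and lowered the number of members among the 5 widest from 4 to 1 and 0. Joining across 1 kb also took the share of the member genes covered from 63.6 to 66.8% and that of the paralog genes from 6.09 to 6.76%, lowered the neighbours within 100 kb from 104 to 64, and left 0 instead of 4 main TSSs free of sites, an alternative added after the data were seen. With sites of at least 500 bp only, the shares were 62.6 and 4.73% for the genes and 95.9% (from 96.4%) and 4.72% (from 6.23%) for the first introns of members and paralogs. First introns of the most upstream transcript gave 6.51% for the paralogs. Within 50 kb there were 64 neighbours and within 200 kb 149, and 81 of at least 500 bp lay within 100 kb. Of 4 islands, 3 lay at least 50% inside a site. Pathway genes with a promoter site numbered 41, 42 with any TSS and 39 with sites of at least 500 bp. Without repeats, the AP-1 density rose from 0.388 to 0.414 per kb. A limit of 10 kb in place of 5 kb left 2 of 10 pathway genes.

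The set holds no value per library. Leaving out replicates was therefore not run, and the depth of the libraries is not in the table. The linking distance of the peak caller, which bears on every width, is not given in the sources used here, and its part was not tested. No paired analysis was possible because the set is pooled over all samples and no result comes from a test.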
